A study of Mus musculus with 4 samples.

Results

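The loci of 8 genes that build the erythroid transcription machinery were examined for listed Myb peaks: Gata1, Klf1, Tal1, Nfe2, Gfi1b, Lmo2, Zfpm1 and Cbfa2t3. Each locus was a 100 kb window, 50 kb to either side of a fixed mm9 point given to the nearest kb for that gene, and a peak belonged to it when its centre fell inside. The windows held 30 peaks, 11 of the 7327 listed with anti-GFP and 19 of the 3410 listed with anti-Myb. The genes were chosen by function and with the positions of the listed peaks, the measured values used here, already known, so counts and positions are a description and carry no test. The points were not checked against an mm9 gene annotation, and no peak is assigned to a gene beyond lying in its window.

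The peaks come from CUT&RUN, in which a nuclease tethered to an antibody cuts out the DNA it sits on, in MEL cells, a mouse erythroleukemia line arrested as early erythroid cells. The series held 4 libraries, 1 per group, all grown in the same medium. Cells labelled Myb-GFP gave the anti-GFP list, and MEL cells without that label gave the anti-Myb list. A library made with anti-GFP in unlabelled MEL cells and a library labelled IgRab, whose antibody is given as none, were not analysed here. The labels do not say how the Myb-GFP cells were made or whether they are a single clone. The lists differ in antibody and in cells at once, and these cannot be told apart. Every peak was 337 bp wide in the anti-GFP list and 313 bp wide in the anti-Myb list, and all scores were 1, so a peak is present or absent and its read depth is unknown. With 1 library per antibody there was no replicate, and no spread between cultures can be given.

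MYB binds DNA in blood progenitors and keeps them dividing, and its level falls as red cells mature. GATA1, TAL1, LMO2 and the bridging protein LDB1 form a complex on erythroid enhancers, in which GATA1 binds GATA sequences, TAL1 binds E-boxes and LMO2 joins them without touching DNA. KLF1 and NF-E2 work beside this complex at the globin genes, while the products of Zfpm1, Gfi1b and Cbfa2t3 are partners or repressors that tune it. KLF1 and LMO2 have been described as MYB targets in human erythroid progenitors, which is background here and not a result.

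All 8 windows held at least 1 anti-Myb peak, with 1 to 4 peaks per window. Of all 100 kb windows on the same 5 chromosomes, centred every 1 kb, 8.91% held an anti-Myb peak. The share among windows centred on other genes was not counted. The anti-GFP list placed a peak in 4 of the 8 windows, those of Klf1, Nfe2, Gfi1b and Cbfa2t3, against 16.5% of all windows. The windows of Gata1, Tal1, Lmo2 and Zfpm1 held no anti-GFP peak. Since every one of the 8 windows held an anti-Myb peak, those with a peak of each list were necessarily the 4 anti-GFP windows. Of all windows, 6.11% held a peak of each. The 19 anti-Myb peaks made up 0.557% of their list (exact 95% binomial interval 0.336% to 0.869%), and the 11 anti-GFP peaks 0.150% of theirs (0.0750% to 0.268%). These intervals cover the counting of peaks only. They treat peaks as independent, although up to 4 peaks of a list lay in the same window.

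**Figure D1:**
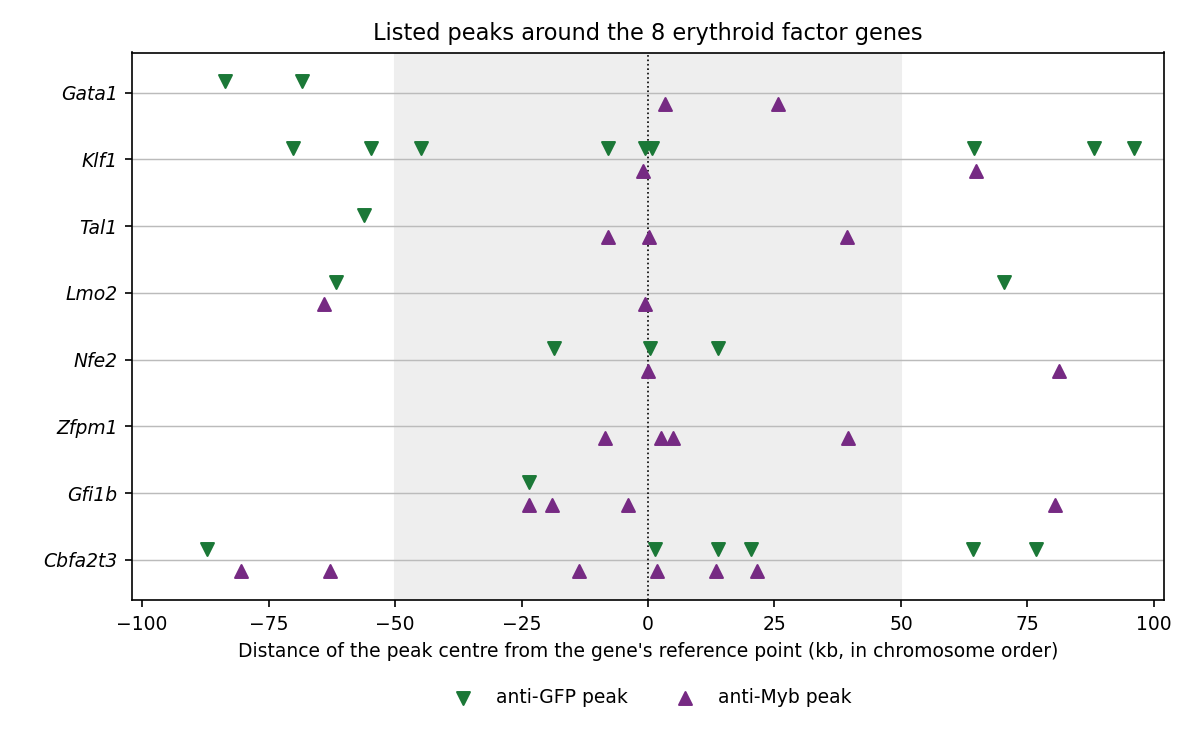
Peak centres within 100 kb of each gene's reference point, by distance in kb in chromosome order. Triangles pointing down are anti-GFP peaks, triangles pointing up are anti-Myb peaks, and the grey band is the 50 kb to either side that defined the loci. Each gene has an anti-Myb peak in the band and 4 genes have no anti-GFP peak there.

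The anti-Myb peaks also lay close to the points. The nearest anti-Myb centre was within 5 kb of the point at all 8 genes, with a median distance of 1.32 kb and a range of 0.011 to 4.01 kb. Of all kb positions on the same chromosomes, 1.15% had an anti-Myb peak that near. These positions include stretches without genes, and the share at the starts of other genes was not counted. Within 1 kb there was an anti-Myb peak at 4 of the 8 genes, Nfe2, Tal1, Lmo2 and Klf1, against 0.241% of all positions. An anti-GFP peak lay within 5 kb at 3 of the 8 genes, Nfe2, Klf1 and Cbfa2t3, against 2.49% of all positions. For Nfe2 and Klf1 it was within 1 kb, against 0.516%. The median distance to an anti-GFP peak was 39.8 kb and the range 0.308 to 162 kb. Moving all points by 5 kb lengthened the median anti-Myb distance to 4.21 kb in one direction and 4.91 kb in the other.

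**Figure D2:**
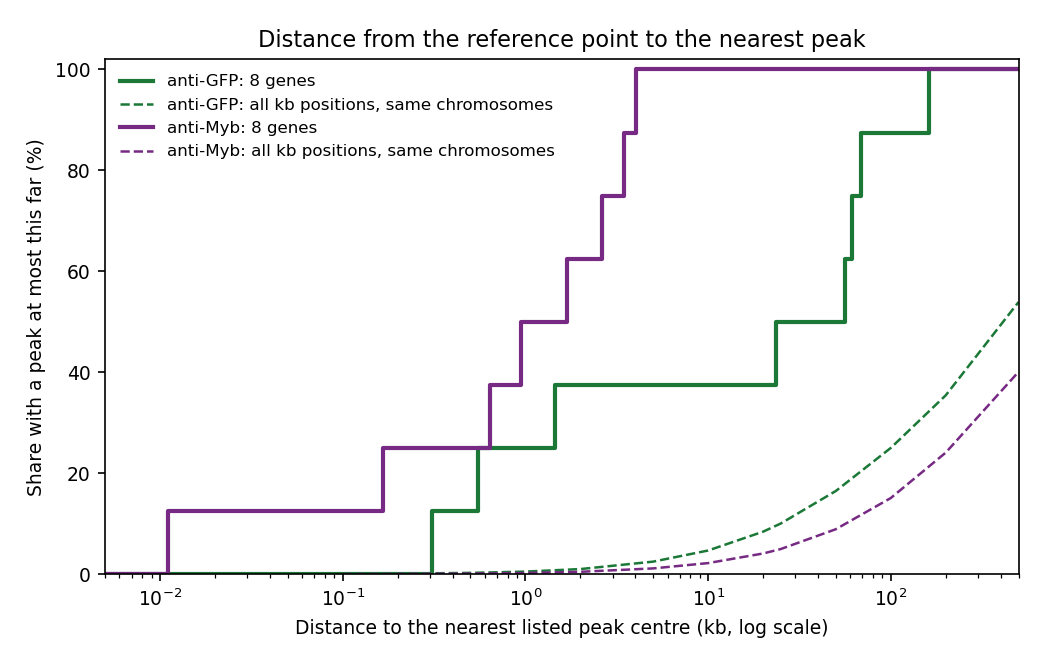
Share of the 8 genes (solid steps) and of all kb positions on the same chromosomes (dashed lines) with a listed peak at most a given distance away, on a log axis in kb. The anti-Myb steps reach 100% at 4.01 kb, where the dashed anti-Myb line is still near 1%; the anti-GFP steps reach 4 of 8 genes within 50 kb.

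The windows mostly lay in peak-rich surroundings. At Tal1 the mean number of anti-GFP peaks per window was 0.325 within 2 Mb and 0.321 over chromosome 4. Counted over the 8 windows, the anti-Myb peaks were 18.4 times, and the anti-GFP peaks 4.97 times, the mean of all windows on each gene's own chromosome. Against windows centred within 2 Mb of each point the ratios were 5.20 and 1.91. Both backgrounds include the windows over the 8 genes, so the genes' own peaks are counted in them, with more weight within 2 Mb. The Zfpm1 and Cbfa2t3 points lie within 2 Mb of each other, so each is also in the other's surroundings. Of the windows within 2 Mb, 19.5% to 35.7% held an anti-Myb peak and 21.9% to 64.8% an anti-GFP peak, depending on the gene. Positions with an anti-Myb peak within 5 kb made up 2.57% to 7.17% of these 2 Mb surroundings.

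**Figure D3:**
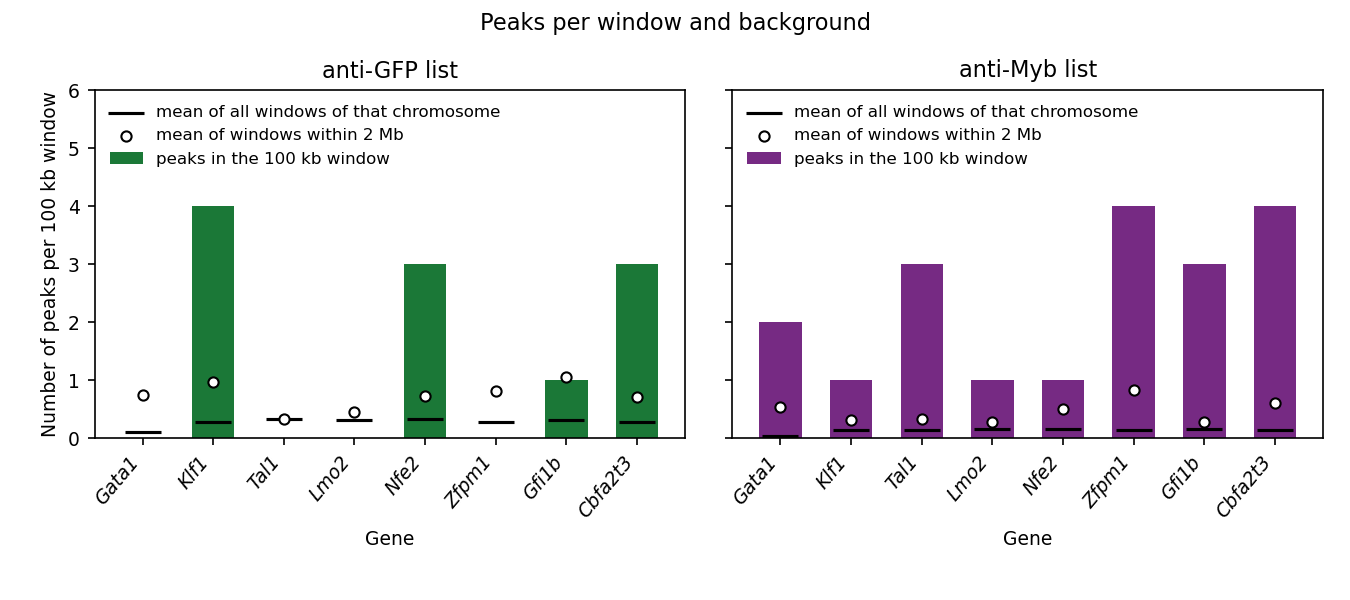
Number of listed peaks in each gene's 100 kb window (bars), with the mean of all windows of that chromosome (black dashes) and of windows centred within 2 Mb of the point (open circles). In the anti-Myb list every bar stands above both means; in the anti-GFP list the bars of Klf1, Nfe2 and Cbfa2t3 do, and the Gfi1b bar stands just under its local mean.

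Gata1 encodes the zinc-finger factor on which red cell and megakaryocyte maturation depend. The chromosome X window around it held 2 anti-Myb peaks and no anti-GFP peak. The nearer one, chrX:7548302-7548614, was centred 3.46 kb above the point, and the other, chrX:7570583-7570895, 25.7 kb above it. Gata1 is on the minus strand, so both lay on the upstream side of the point, the flank where upstream erythroid enhancers of Gata1 have been described. Of the windows of chromosome X, 3.10% held an anti-Myb peak and 0.891% held 2 or more, compared with 15.7% of the windows within 2 Mb of Gata1. The closest anti-GFP peak was 68.3 kb below the point. In the RefSeq gene order (GRCm38.p6) the neighbours are Hdac6, Eras and Pcsk1n on one side and Glod5, Suv39h1 and Was on the other.

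Klf1 encodes the factor that binds CACCC boxes and activates the adult beta-globin gene. On chromosome 8 its window held 4 anti-GFP peaks, the most of the 8 genes in that list, and 1 anti-Myb peak. Anti-GFP peaks at chr8:87425281-87425617 and chr8:87426611-87426947 lay on either side of the point, 0.551 kb below and 0.779 kb above it. The anti-Myb peak, chr8:87424896-87425208, was centred 0.948 kb below the point, on the point's upstream side for this plus-strand gene. It missed the first of these anti-GFP peaks by a gap of 72 bp, with centres 397 bp apart. The other anti-GFP peaks were 7.81 kb (chr8:87418022-87418358) and 44.9 kb (chr8:87380887-87381223) below the point. Windows with 4 or more anti-GFP peaks made up 0.852% of chromosome 8 and 6.95% of the 2 Mb surroundings, while 9.06% and 19.5% held an anti-Myb peak. Farsa, Syce2, Gcdh, Dnase2a, Mast1 and Rtbdn are the RefSeq neighbours of Klf1.

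Tal1 encodes the basic helix-loop-helix factor that pairs with E proteins on E-boxes. On chromosome 4 its window held 3 anti-Myb peaks and no anti-GFP peak. One, chr4:114729011-114729323, was centred 0.167 kb above the point. A second, chr4:114720874-114721186, lay 7.97 kb below the point, on the point's upstream side for this plus-strand gene. The third, chr4:114768218-114768530, lay 39.4 kb above the point, on its downstream side. On that flank an erythroid enhancer of mouse Tal1 has been described, and that element was not located on mm9 here. The third was also the earliest of the 3 in the file, at row 113 of the list. Windows with 3 or more anti-Myb peaks made up 0.559% of chromosome 4 and 1.32% of the 2 Mb around Tal1. Both shares include the windows that hold these 3 peaks of Tal1 itself. The peaks spanned 47.3 kb, so many neighbouring 100 kb windows hold all 3. The local share therefore gives no rate for other windows near Tal1. The nearest anti-GFP peak lay 56.1 kb below the point, just outside the window. Stil, Cmpk1 and Foxe3 precede Tal1 in the RefSeq order, and Pdzk1ip1, Cyp4x1 and Cyp4a29 follow it.

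Nfe2 encodes the large subunit of NF-E2, which binds the globin locus control regions together with small Maf proteins. The lists met at its point on chromosome 15. The anti-Myb peak, chr15:103088855-103089167, was centred 0.011 kb from the point, and the anti-GFP peak, chr15:103089140-103089476, 0.308 kb above it. These overlapped by 28 bp. A pair of further anti-GFP peaks lay 18.6 kb below (chr15:103070184-103070520) and 13.8 kb above the point (chr15:103102664-103103000), with no anti-Myb peak near them. Windows with 3 or more anti-GFP peaks made up 3.23% of chromosome 15 and 11.1% of the 2 Mb surroundings. For 1 or more anti-Myb peaks the values were 11.5% and 33.9%. Cbx5, Hnrnpa1 and Smug1 lie on one side of Nfe2 in the RefSeq order, and Copz1, Gpr84 and Zfp385a on the other.

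Gfi1b encodes a zinc-finger repressor that recruits histone-modifying complexes in erythroid and megakaryocytic cells. Its window on chromosome 2 held 3 anti-Myb peaks, all below the point and therefore on the point's downstream side, since Gfi1b is on the minus strand. They were centred 4.01 kb (chr2:28472835-28473147), 18.9 kb (chr2:28457924-28458236) and 23.4 kb (chr2:28453410-28453722) from the point. The single anti-GFP peak, chr2:28453327-28453663, overlapped the last of these by 254 bp, with centres 71 bp apart. This was the closest match between the lists in the 8 windows, and the one pair in which each peak covered at least 50% of the other. Windows with 3 or more anti-Myb peaks made up 0.766% of chromosome 2 and 2.05% of the 2 Mb around Gfi1b. These shares include the windows holding these 3 peaks themselves. The peaks spanned 19.4 kb, so many neighbouring 100 kb windows hold all 3. The 2.05% therefore gives no rate for other windows near Gfi1b. Windows with an anti-GFP peak were common, at 19.6% of chromosome 2 and 64.8% of the 2 Mb surroundings. Gtf3c5, Cel and Ralgds lie on the low side of Gfi1b in the RefSeq order, and Tsc1, Spaca9 and Ak8 on the high side.

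Lmo2 encodes the LIM-only adaptor that links GATA1 and TAL1. A single peak was listed in its window, also on chromosome 2: an anti-Myb peak at chr2:103797202-103797514, centred 0.642 kb below the point. It stood at row 2889, 84.7% of the way down, the latest of the 19 anti-Myb peaks. Windows with at least 1 anti-Myb peak made up 11.1% of chromosome 2 and 24.1% of the 2 Mb around Lmo2. The nearest anti-GFP peak was 61.7 kb below the point. The RefSeq neighbours are Caprin1, Nat10 and Abtb2 on the low side, and 4931422A03Rik, Fbxo3 and Cd59b on the high side.

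Zfpm1 encodes FOG1, the cofactor that GATA1 needs at many of its targets. Its window on chromosome 8 held 4 anti-Myb peaks, and of the 8 points that of Zfpm1 was the farthest from an anti-GFP peak, at 162 kb. An anti-Myb peak lay 8.60 kb below the point (chr8:124797248-124797560), on the point's upstream side for this plus-strand gene. Another 2 followed closely above the point, at 2.63 kb (chr8:124808472-124808784) and 4.85 kb (chr8:124810694-124811006), with centres 2.22 kb apart. The fourth lay 39.6 kb above it (chr8:124845401-124845713) and was the earliest of the 4 in the file, at row 222. Windows with 4 or more anti-Myb peaks made up 0.1996% of chromosome 8 and 5.80% of the 2 Mb around Zfpm1. Both shares include windows over Zfpm1 itself and over Cbfa2t3, which lies within 2 Mb of it. Car5a, Banp and Zfp469 precede Zfpm1 in the RefSeq order, and Trhr2, Gm39270 and Zc3h18 follow it.

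Cbfa2t3 encodes ETO2, a corepressor bound to the TAL1 and GATA1 complex in immature erythroid cells. Its window on chromosome 8 held 4 anti-Myb and 3 anti-GFP peaks. Above the point, on the point's upstream side for this minus-strand gene, 3 peaks of each list ran side by side. The first pair, anti-GFP chr8:125224293-125224629 and anti-Myb chr8:125224543-125224855, was centred 1.46 and 1.70 kb from the point and overlapped by 87 bp. The second pair, chr8:125236629-125236965 and chr8:125236243-125236555 in the same order, was centred at 13.8 and 13.4 kb and missed overlap by 73 bp. The third neighbours, chr8:125243231-125243567 and chr8:125244431-125244743, were centred at 20.4 and 21.6 kb. Their gap of 863 bp was wider than the 500 bp allowed for a pair. The remaining anti-Myb peak, chr8:125209276-125209588, lay 13.6 kb below the point without an anti-GFP neighbour. Windows with 4 or more anti-Myb peaks made up 0.1996% of chromosome 8, the same figure as for Zfpm1, and 4.47% of the 2 Mb around Cbfa2t3. Both shares include windows over these 2 genes themselves. For 3 or more anti-GFP peaks the shares were 2.90% and 8.27%. Galns, Trappc2l and Pabpn1l precede Cbfa2t3 in the RefSeq order, and Acsf3, Cdh15 and Ankrd11 follow it.

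Overlap between the lists, by at least 1 bp, occurred in 3 of the 8 windows, at Nfe2, Gfi1b and Cbfa2t3, with 1 pair in each. Of all windows on the 5 chromosomes, 2.02% held such a pair. Allowing a gap of up to 500 bp added Klf1 and a second pair at Cbfa2t3, which made 5 pairs in 4 windows, against 3.33% of all windows. The overlap at Nfe2 was the narrowest, at 28 bp. With 50% of each peak required to overlap, the Gfi1b pair alone was left. The share of all windows with a pair under that rule was not counted, so this count has no background beside it.

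Both files list peaks in an order whose meaning they do not state. The 19 anti-Myb peaks had a median position 18.97% of the way down their list, 16 of them in the first 50%, and the 11 anti-GFP peaks a median of 16.3%, with 8 in the first 50%. By construction the median of a whole list is 50%. Cbfa2t3 supplied the earliest rows in both lists. Its anti-Myb peaks above the point were rows 14, 37 and 75, and their anti-GFP neighbours rows 50, 514 and 582. Without Cbfa2t3 the medians were 29.3% for anti-Myb and 36.9% for anti-GFP, and without Klf1 the anti-GFP median was 7.94%. The paired peaks at Gfi1b were row 280 (anti-Myb) and row 230 (anti-GFP). At Nfe2 the order was late, with the anti-Myb peak at row 1747 and the 3 anti-GFP peaks between rows 4902 and 6884.

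**Figure D4:**
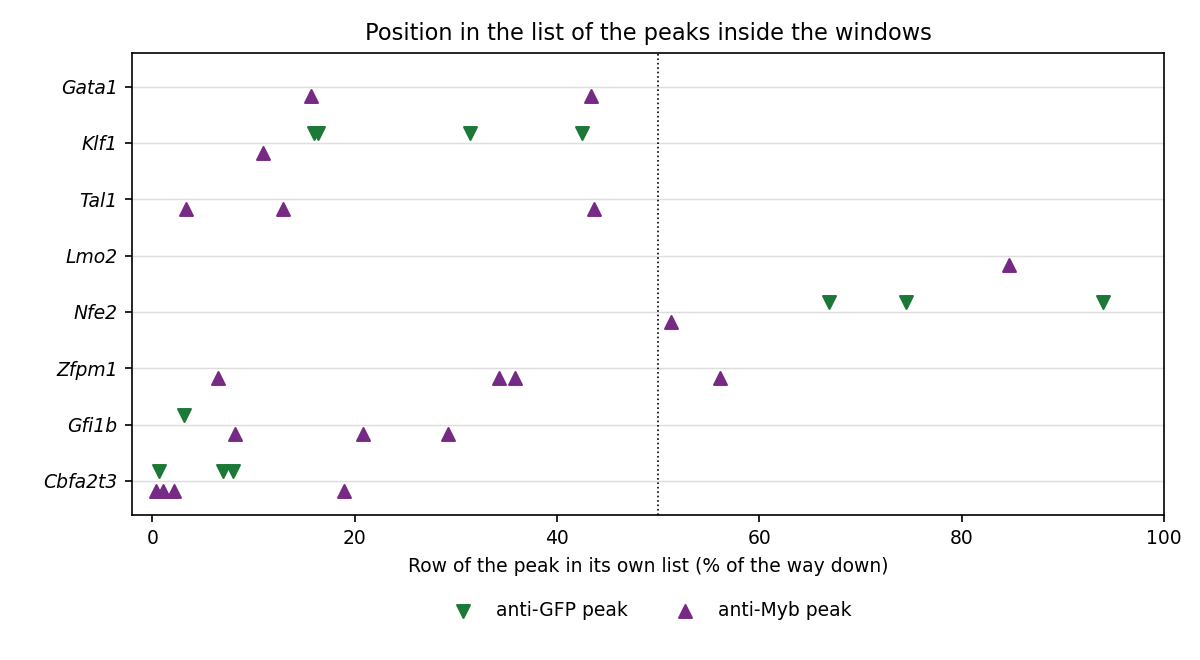
Row of each of the 30 peaks as a percentage of its own list, by gene. Triangles pointing down are anti-GFP peaks, triangles pointing up anti-Myb peaks, and the dotted line marks 50%. Cbfa2t3 and Gfi1b peaks stand toward the start of both lists, the Nfe2 peaks past 50% in both.

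Promoter sequences, from 250 bases before to 50 after an annotated start, were sought in RefSeq (GRCm38.p6) for all 8 genes, whatever their peaks. The table matched 6 of the 8 genes with 8 promoters, and Lmo2 and Nfe2 were not matched. Those printed belong to Klf1 and Tal1, which had an anti-Myb peak within 1 kb of the point, and to Cbfa2t3, where the lists ran side by side. They lie at chr8:84901732-84902031 (plus strand, Klf1), chr4:115056176-115056475 and chr4:115057561-115057860 (plus strand, Tal1), and chr8:122699060-122699359 and chr8:122678126-122678425 (minus strand, Cbfa2t3). These are GRCm38.p6 positions and cannot be set against the mm9 peaks, so whether a peak covers them was not tested. Capitals mark the MYB core AACNG or its reverse complement CNGTT.
Klf1: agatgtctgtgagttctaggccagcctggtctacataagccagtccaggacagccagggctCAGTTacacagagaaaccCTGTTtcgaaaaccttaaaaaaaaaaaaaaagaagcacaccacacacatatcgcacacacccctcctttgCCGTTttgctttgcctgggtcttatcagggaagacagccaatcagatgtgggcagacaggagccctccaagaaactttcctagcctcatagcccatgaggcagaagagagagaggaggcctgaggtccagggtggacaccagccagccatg
Tal1 upstream: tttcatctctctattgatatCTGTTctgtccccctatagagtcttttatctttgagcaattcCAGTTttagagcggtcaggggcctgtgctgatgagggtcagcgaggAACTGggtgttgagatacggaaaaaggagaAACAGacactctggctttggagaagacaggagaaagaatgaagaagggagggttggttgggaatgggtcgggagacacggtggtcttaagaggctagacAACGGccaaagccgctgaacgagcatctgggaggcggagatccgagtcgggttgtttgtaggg
Tal1 downstream: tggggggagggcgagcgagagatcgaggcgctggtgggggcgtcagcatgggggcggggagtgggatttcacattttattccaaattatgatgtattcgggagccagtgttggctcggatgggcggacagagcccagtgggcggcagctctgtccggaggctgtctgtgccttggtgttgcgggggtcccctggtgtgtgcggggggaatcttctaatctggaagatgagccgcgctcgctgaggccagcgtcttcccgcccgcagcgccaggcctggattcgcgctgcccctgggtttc
Cbfa2t3 upstream: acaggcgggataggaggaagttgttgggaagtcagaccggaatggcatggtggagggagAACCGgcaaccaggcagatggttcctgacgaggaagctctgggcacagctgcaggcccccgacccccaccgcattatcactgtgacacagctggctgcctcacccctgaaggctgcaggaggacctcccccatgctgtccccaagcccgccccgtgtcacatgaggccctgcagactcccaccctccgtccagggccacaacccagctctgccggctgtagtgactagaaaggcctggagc
Cbfa2t3 downstream: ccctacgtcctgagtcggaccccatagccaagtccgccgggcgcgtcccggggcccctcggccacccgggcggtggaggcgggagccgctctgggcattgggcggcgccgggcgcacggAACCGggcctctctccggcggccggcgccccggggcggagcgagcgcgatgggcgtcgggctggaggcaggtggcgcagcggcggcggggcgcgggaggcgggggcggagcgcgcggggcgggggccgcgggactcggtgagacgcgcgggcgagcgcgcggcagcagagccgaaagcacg

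The MYB core AACNG occurred on either strand in 6 of the 8 matched promoters, beside 80.3% of all 32851 promoters in the table, so its presence is common. The upstream Tal1 promoter held 5 matches, the Klf1 promoter 3, and each Cbfa2t3 promoter, the Zfpm1 promoter and the Gfi1b promoter 1. Over all promoters the median was 2 matches and the mean 1.77. The downstream Tal1 promoter and the Gata1 promoter held none. The longer form CAACNG was found in 1 of the 8, the upstream Tal1 promoter, and in 35.0% of all promoters. The GATA core GATAA, read on both strands, was present in 4 of the 8, against 25.4%. The E-box CANNTG was in 6 of the 8, against 72.3%. The KLF box CACCC, read on both strands, was in 7 of the 8, against 57.5%. Every CAACNG match contains an AACNG match by its letters, and each motif was counted separately. A match is a stretch of letters and not a bound site.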

How the data were processed

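Peak lists of 2 CUT&RUN libraries were used, each from 1 library as the labels give it. Coordinates are on mm9 per the submitters' processing notes, which also list, with no role or order, HOMER 4.10.3, STAR 2.7.9a, deepTools 3.4.2, Picard 2.17.11, Trim Galore 0.6.6 and SAMtools 1.11. Which threshold, control library and duplicate filter decided the peaks listed is not given in the sources used here. The deposited score was 1 for every peak, and the coordinates deposited by the authors give 1 width per list. Coordinates are printed 1-based.

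Counting used pandas 2.3.3 and NumPy 2.4.6 under Python 3.11.15, with exact intervals from SciPy 1.17.1. Windows were 50 kb to either side of each point. The background was every such window centred on each kb between the outermost peaks of both lists on chromosomes 2, 4, 8, 15 and X, 716194 in all, in place of randomly drawn windows. These windows overlap one another and include unmappable sequence and the windows of the 8 genes themselves. Counting was tested on simulated lists. Every locus and peak is named, and up to 3 protein-coding RefSeq neighbours per side. The genes, windows and alternatives were chosen with earlier results of these data known. The background within 2 Mb was added after these counts were seen.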

Additional observations from a re-analysis of the deposited data

How the results depend on the processing

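The anti-Myb list kept a peak in all 8 windows at half-widths of 25 and 100 kb and with the points moved 5 kb to either side. With the first 50% of each list, 6 windows held an anti-Myb peak and 3 an anti-GFP peak. The share of all windows with a peak was not counted for these shortened lists. The anti-GFP list had peaks in 4 windows at 25 kb and 7 at 100 kb, where its peaks rose from 11 to 24 and their median list position was 29.3%. The share of all windows with a peak widened too, from 10.05% at 25 kb to 25.02% at 100 kb for anti-GFP and from 4.99% to 15.1% for anti-Myb. The ratio to all windows moved to 31.0 (anti-Myb) and 9.03 (anti-GFP) at 25 kb, and to 32.4 for anti-Myb with the first 50% of each list. It was 6.96 (anti-Myb) and 1.90 (anti-GFP) without stretches over 1 Mb lacking peaks, which removes empty windows by construction. Against windows within 2 Mb of each point it was 5.20 and 1.91. That background counts the genes' own peaks, which by construction raises its mean, and the cause of the rest of the change was not tested. The median anti-Myb distance was 3.04 kb with the first 50% of the list, and 4.21 and 4.91 kb with the points moved. Requiring 50% of each peak to overlap left 1 window with a pair, a count without a share of all windows beside it. Using CAACNG in place of AACNG left 1 promoter. Leaving out each gene in turn gave 7 to 11 anti-GFP and 15 to 18 anti-Myb peaks, with median list positions of 7.94% to 36.9% and 15.7% to 29.3%. The lowest anti-GFP count and position came without Klf1, and the highest positions without Cbfa2t3. No paired analysis was possible because each group held 1 library. Read depth is unknown, so a window without a peak shows that none passed the authors' threshold, not that MYB was absent.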

Other observations

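Beyond the windows, from 50 to 100 kb from the points, a pair of peaks from the 2 lists lay 64.4 kb (anti-GFP) and 64.8 kb (anti-Myb) above the Klf1 point, with a gap of 61 bp between them. Inside the windows the gaps were 72 bp beside the Klf1 point and 73 bp at the second Cbfa2t3 pair. The pairs at Nfe2, Cbfa2t3 and Gfi1b overlapped instead, by 28, 87 and 254 bp. How gaps are spread over the whole lists was not counted. At Lmo2 an anti-Myb peak 64.0 kb and an anti-GFP peak 61.7 kb below the point were centred 2276 bp apart, and this anti-Myb peak stood at row 362, far earlier than row 2889 for the peak beside the Lmo2 point. An anti-Myb peak 80.5 kb above the Gfi1b point was row 126 of its list and had no anti-GFP peak within 100 kb. The nearest peaks outside the limit of 50 kb were anti-GFP peaks 54.8 kb from Klf1 and 56.1 kb from Tal1, and the outermost inside it was the anti-GFP peak 44.9 kb from Klf1.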
